A study of Mus musculus with 9 samples.

Results

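The 10 genes described here are 3 of the colony-stimulating factor 1 (CSF1) axis and 7 that mark macrophages, in RNA-seq of mouse ovarian tissue. They were taken by symbol from a table of 19517 genes, and 10 of 10 were present with values in each of 3 comparisons. The mice were female BALB/c nude animals, which are athymic and lack most T cells, and each bore a xenograft tumour of the human breast cancer line MDA-MB-231. The 9 samples fell into 3 groups of 3. UT mice had no treatment, CTX mice had cyclophosphamide, an alkylating chemotherapy drug, and CAU mice had caulerpin, an alkaloid of green seaweeds. For CAU the labels list only caulerpin, and whether these mice also had cyclophosphamide is not stated there. The sources used here give no age, dose or time of sampling. No group without a tumour was analysed here.

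Macrophages depend on the receptor CSF1R for survival, proliferation and differentiation. Its ligands are CSF1, made mostly by cells that are not macrophages, and interleukin 34, which binds the same receptor. Resident macrophages of the ovary clear dying cells from regressing follicles and corpora lutea, and they are usually recognised by F4/80 (Adgre1), CD11b (Itgam), the fractalkine receptor CX3CR1, the lysosomal glycoprotein CD68, lysozyme (Lyz2), the calcium-binding protein IBA1 (Aif1) and the receptor MERTK, which binds apoptotic cells.

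The values are the log2 fold changes, p-values and DESeq2 q-values (here adjusted p) of the authors' deposited table. Beside a log2 fold change stands the standard error (SE) implied by its own p-value, or the 95% interval from that SE. A gene with an adjusted p under 0.05 is said to have risen or fallen. The table holds no value per library and no expression level, so the overlap between samples, the depth and the order of the genes by abundance could not be examined. In the same way, the labelled tissue could not be checked by the level of ovarian markers. The labels number the samples without naming separate mice, so the spread behind the p-values is that of samples and may be partly technical. In each column name, the group named last was taken as the numerator. With that reading Cdkn1a, a p53 target induced by DNA damage, was at 1.99 (adjusted p = 9.15e-07, SE 0.32) in CTX against UT per the authors' deposited table. With the opposite reading all directions given here would be turned.

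Cyclophosphamide-treated ovaries had less RNA of the CSF1 receptor and of its ligand Csf1, and of 3 surface and cytoplasmic markers of macrophages, than untreated ovaries. Of the 10 genes, 5 fell and none rose, where 0.820% of 19260 genes tested fell and 0.472% rose. The 5 were Csf1r, Csf1, Cx3cr1, Adgre1 and Aif1. At an unadjusted p under 0.05, 6 of the 10 were lower, against 5.79% of all genes. All 10 log2 fold changes were negative, as were 55.8% of those of all genes, and the median was -0.85 against -0.03 over all genes. In a bulk sample, a smaller share of the cells that make these RNAs, macrophages or others, and less of these RNAs per cell cannot be told apart.

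**Figure D1:**
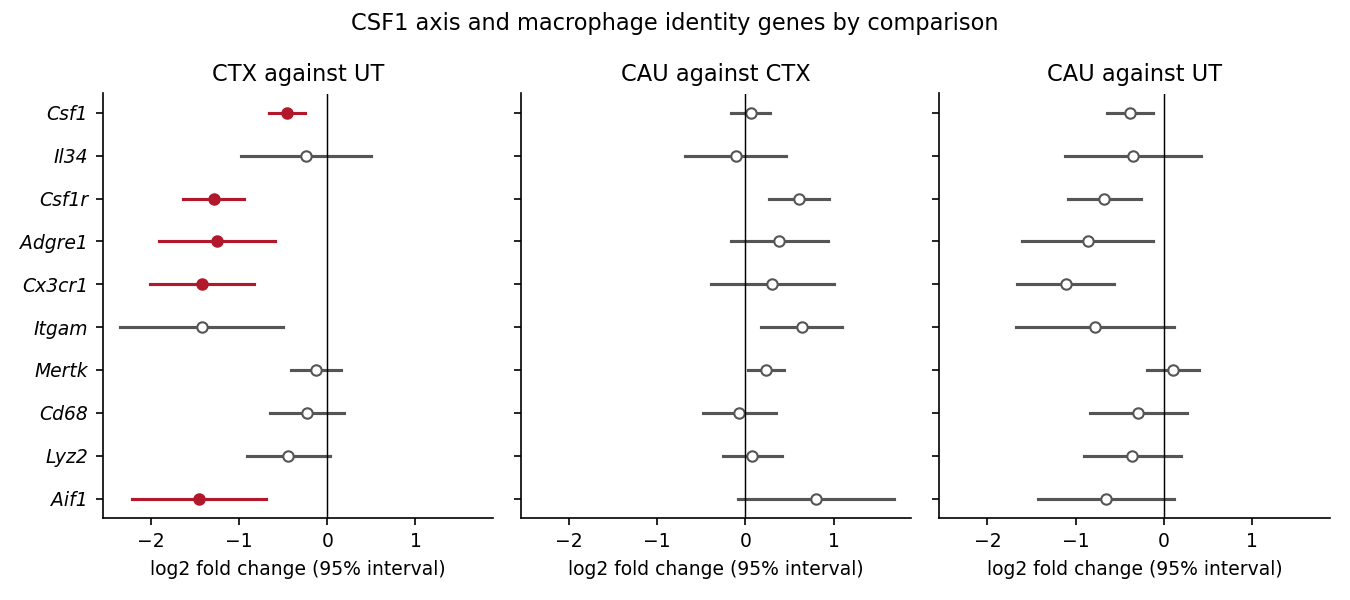
Log2 fold change of each of the 10 genes (points) with its 95% interval (bars) in the 3 comparisons, filled red where the adjusted p was under 0.05. The 5 filled points are all in CTX against UT, between -1.46 and -0.45, and no gene passed in the other panels.

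Among the ligands, Csf1 was at -0.45 (95% interval -0.66 to -0.25, adjusted p = 0.00256, SE 0.10) in CTX against UT per the authors' deposited table, a fall of 27.0% in RNA. The interval of Csf1 was the narrowest of the 10. Il34, the other ligand, was at -0.24 (95% interval -0.98 to 0.49, adjusted p = 0.976) per the authors' deposited table. That interval runs from a change of -49.3% to one of 40.5%, so a fall, no change or a rise of Il34 within those bounds remains compatible with the values.

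The receptor gene Csf1r fell by 1.29 on the log2 scale (95% interval -1.63 to -0.94, adjusted p = 1.16e-09, SE 0.18) per the authors' deposited table. This is 59.0% less RNA, and Csf1r had the 5th smallest p-value of all genes in CTX against UT. The fall of Csf1r was larger than that of its ligand Csf1, by 0.83 on the log2 scale. The 95% interval of that difference was 0.29 to 1.38 when computed with the largest SE that any correlation between the genes' errors allows.

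Of the surface markers, Cx3cr1 was at -1.42 (adjusted p = 0.000742, SE 0.30) and Adgre1 at -1.25 (adjusted p = 0.0207, SE 0.34) per the authors' deposited table. Itgam, the alpha chain of the integrin Mac-1, had the same log2 fold change as Cx3cr1, -1.42, with a wider SE of 0.47, and did not pass (adjusted p = 0.111) per the authors' deposited table. The estimates of Itgam and Cx3cr1 thus differed in precision and not in size. Mertk was at -0.13 (95% interval -0.42 to 0.15, adjusted p = 0.939) per the authors' deposited table, the smallest change of the 10.

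Of the intracellular markers, Aif1 was at -1.46 (95% interval -2.22 to -0.70, adjusted p = 0.0198, SE 0.39) per the authors' deposited table, the lowest value of the 10. Cd68 was at -0.23 (95% interval -0.65 to 0.20, adjusted p = 0.900) and Lyz2 at -0.44 (95% interval -0.92 to 0.03, adjusted p = 0.550) per the authors' deposited table. The intervals of Csf1, Il34, Mertk, Cd68 and Lyz2 all exclude a 2-fold fall, while the estimates of Csf1r, Adgre1, Cx3cr1, Itgam and Aif1 all exceed it. The intervals of the latter genes still include falls smaller than 2-fold. Their upper bounds ran from -0.94 for Csf1r to -0.50 for Itgam.

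The estimates of the 10 genes therefore lay in 2 ranges in CTX against UT, 5 from -1.46 to -1.25 and 5 from -0.45 to -0.13. The gap between them, from Adgre1 to Csf1, was 0.80, and it was the only one between neighbours in that order that exceeded the larger SE of its pair. With the largest possible SE, the 95% interval of Csf1 minus Adgre1 was -0.06 to 1.66, so the pair at the gap was not itself separated. Of the 45 pairs of genes, 12 had a difference whose 95% interval excluded 0 with the largest possible SE, with no adjustment for the number of pairs, and 23 with independent errors. Csf1r lay below Mertk by 1.16 on the log2 scale (95% interval of Csf1r minus Mertk -1.79 to -0.53) and below Cd68 by 1.06 (95% interval of Csf1r minus Cd68 -1.83 to -0.29). Mertk lay above Cx3cr1 by 1.29 (95% interval of Mertk minus Cx3cr1 0.42 to 2.16), and no pair within either range was among the 12. Il34 was in none of the 12, and Itgam only with Mertk. The ranges were drawn from these same estimates, and this comparison of pairs was chosen after the values were seen.

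**Figure D2:**
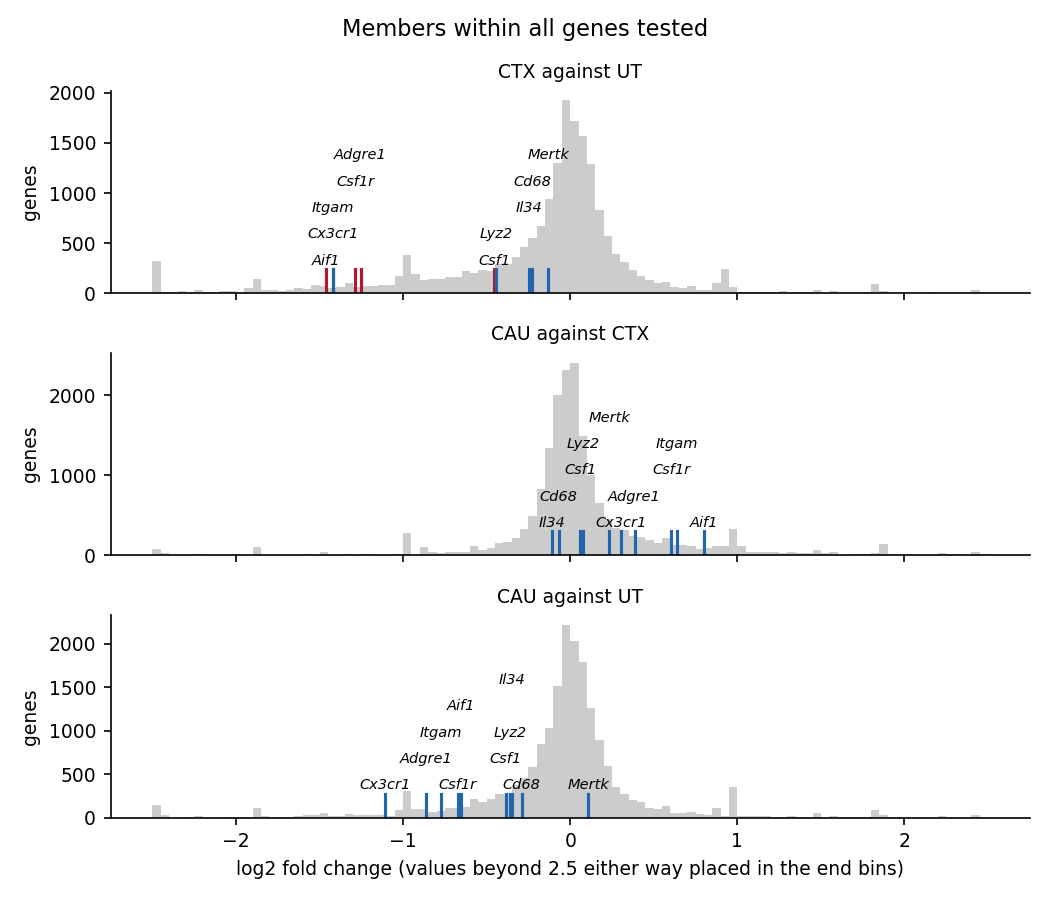
Histograms of the log2 fold changes of all genes tested (grey, bins of 0.05) in the 3 comparisons, with the 10 genes as vertical ticks, red where the adjusted p was under 0.05 and blue otherwise. In CTX against UT, Aif1, Cx3cr1, Itgam, Csf1r and Adgre1 lie in the lower tail, where between 5.30% and 6.72% of all genes are lower still.

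Lyz2 has a neighbouring copy, Lyz1, and the authors' counting could have divided reads between them. In GRCm38.p6, Lyz2 lies at chr10:117277541-117282272 and Lyz1 at chr10:117287795-117292868, both on the minus strand and 5522 bases apart. Their GENCODE transcripts were 96.0% identical over 1262 aligned bases, and 15.4% of the 50-base stretches of the Lyz2 transcript occur unchanged in that of Lyz1. Lyz1 was at -0.69 (adjusted p = 0.513, SE 0.36) in CTX against UT per the authors' deposited table, so neither copy passed, and the split between them is uncertain.

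The caulerpin group was not separated from the cyclophosphamide group by any of the 10 genes at the threshold. By DESeq2 adjusted p, none of the 10 passed in CAU against CTX, where 0.442% of 19245 genes did and 0.312% rose. At an unadjusted p under 0.05, 3 of the 10 were higher in CAU (Csf1r, Itgam and Mertk) and none lower, where 3.32% of all genes were higher. The median of the 10 was 0.27 against 0.00 over all genes, and 8 of the 10 values were positive.

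Csf1r was closest to the threshold in CAU against CTX, at 0.61 (95% interval 0.27 to 0.94, adjusted p = 0.0844, SE 0.17) per the authors' deposited table, which is 52.1% more RNA. With the z values scaled to a spread of 1 over all genes, the calls over all genes went from 85 to 237. The adjusted p of Csf1r was then 0.00579, and over all alternatives tried it ran from 0.00579 to 0.0877. Its ligand Csf1 was at 0.06 (95% interval -0.16 to 0.28, adjusted p = 1.00) per the authors' deposited table. The fall of Csf1 in CTX against UT had its own 95% interval, -0.66 to -0.25, and both comparisons use the CTX samples. Whether Csf1 rose by as much as it fell was not tested. Il34 was at -0.11 (95% interval -0.68 to 0.46) per the authors' deposited table.

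Itgam was at 0.64 (95% interval 0.18 to 1.10, adjusted p = 0.417) and Mertk at 0.23 (95% interval 0.03 to 0.44, adjusted p = 0.743) in CAU against CTX per the authors' deposited table. Aif1 had the highest value of the 10, 0.80, with a wide 95% interval of -0.08 to 1.68 per the authors' deposited table. The values for Adgre1 and Cx3cr1 were 0.39 (SE 0.28) and 0.30 (SE 0.36), neither past the threshold, per the authors' deposited table. Cd68 and Lyz2 were at -0.07 (SE 0.21) and 0.08 (SE 0.17) per the authors' deposited table, close to 0. Every gap between neighbours in this order was smaller than the larger SE of its pair, and none of the 45 pairs had a difference whose interval excluded 0 with the largest possible SE, against 7 with independent errors.

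Set against the untreated group, CAU ovaries also had none of the 10 genes past the threshold. By DESeq2 adjusted p, none of the 10 passed in CAU against UT, where 0.0518% of 19302 genes did, which is 10 genes. At an unadjusted p under 0.05, 4 of the 10 were lower (Cx3cr1, Csf1r, Csf1 and Adgre1) and none higher, where 2.26% of all genes were lower. The median of the 10 was -0.52 against -0.01 over all genes, and 9 of the 10 values were negative.

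Cx3cr1 was nearest to the threshold, at -1.11 (95% interval -1.66 to -0.56, adjusted p = 0.109, SE 0.28) in CAU against UT per the authors' deposited table. It had the 12th smallest p-value of that comparison. Csf1r was at -0.67 (95% interval -1.09 to -0.26, adjusted p = 0.397) and Csf1 at -0.39 (95% interval -0.64 to -0.13, adjusted p = 0.701) per the authors' deposited table. With z scaled to a spread of 1, these 3 genes passed, with adjusted p = 4.06e-05, 0.00190 and 0.00830. These were the lowest over the alternatives tried, whose highest values were 0.119, 0.447 and 0.807. The same scaling moved the calls over all genes from 10 to 255.

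Of the other surface markers, Adgre1 lay at -0.86 (SE 0.38) and Itgam at -0.78 (SE 0.46) in CAU against UT per the authors' deposited table. Mertk, at 0.11 (95% interval -0.19 to 0.40), was the single positive value per the authors' deposited table. Aif1 was at -0.65 (SE 0.39), Cd68 at -0.29 (SE 0.28) and Lyz2 at -0.36 (SE 0.28) per the authors' deposited table. Il34 was at -0.35 (SE 0.39) per the authors' deposited table. Of the 45 pairs, 2 had a difference whose interval excluded 0 with the largest possible SE, those of Mertk with Csf1r and with Cx3cr1, and 6 with independent errors.

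**Figure D3:**
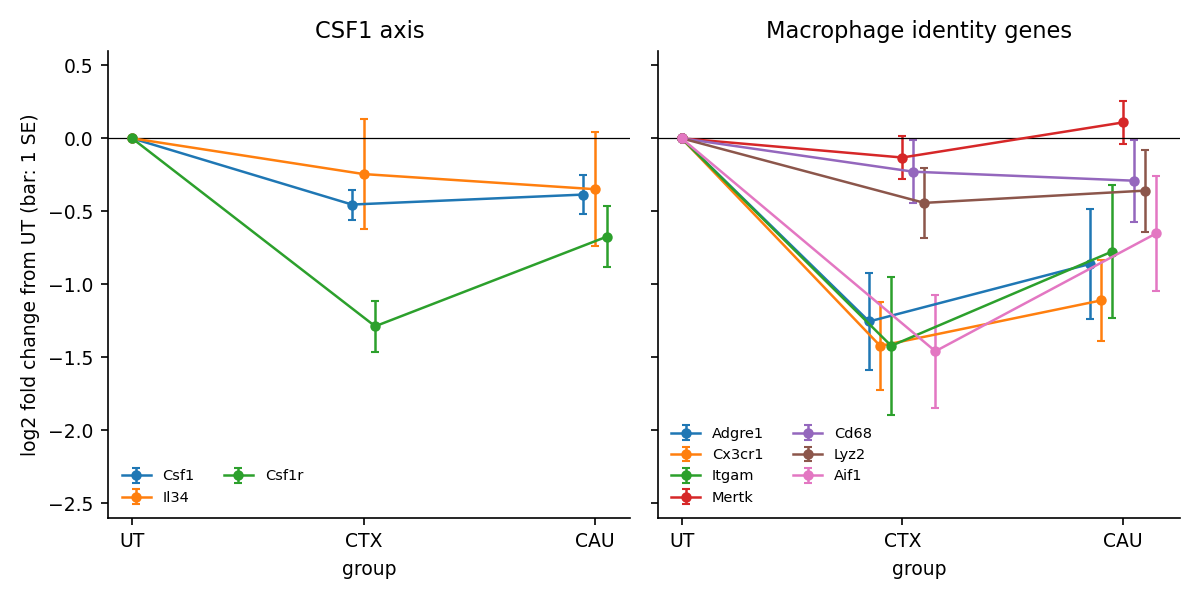
Log2 fold change from UT (y axis, bars 1 SE) of the 3 genes of the CSF1 axis (left) and the 7 macrophage identity genes (right) in CTX and CAU, with UT at 0 by definition. Csf1r was at -1.29 in CTX and -0.67 in CAU, while Csf1 was at -0.45 and -0.39. The 2 groups share the UT samples, so their bars are not independent.

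The comparisons share samples, so the values are set side by side and their likeness is no separate result. In CTX against UT, CAU against CTX and CAU against UT in turn, the authors' deposited table gave -1.29, 0.61 and -0.67 for Csf1r and -1.42, 0.30 and -1.11 for Cx3cr1. It gave -0.45, 0.06 and -0.39 for Csf1 in the same order. Precision also differed between comparisons. The SE was smallest in CAU against CTX for 7 of the 10 genes, as for 57.8% of all 18773 genes with values in every comparison. The SE of Itgam was 0.47 and 0.46 in the comparisons with UT and 0.23 between CAU and CTX.

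The genes whose values lay nearest to those of Csf1r in CTX against UT and CAU against CTX were Fyb, Pld4, Fcrls, Arhgap30 and C1qa. They were sought among 11269 genes whose SE did not exceed 0.3 in either. The distance, computed over the log2 fold changes of these comparisons, ran from 0.02 for Fyb to 0.21 for C1qa. In the authors' deposited table, Fyb was at -1.29 and 0.58, Pld4 at -1.29 and 0.58, and Fcrls at -1.25 and 0.48. All of the nearest genes fell in CTX against UT, and none passed in CAU against CTX. They were chosen for values like those of Csf1r and for a small SE. That choice largely fixed the falls in advance, so they are no separate result. The SEs of Fyb, Pld4 and Fcrls in CAU against CTX were 0.24, 0.21 and 0.27. Each was larger than the distance of its gene from Csf1r, so the order by distance is uncertain. Fyb encodes an adaptor protein of blood cells, and Fcrls an Fc receptor-like protein known as a microglial marker.

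Most of the proteins that carry the signal of CSF1R inside the cell are also found in other cell types. In CTX against UT, 19 of their genes had a median of -0.10 and a range from -1.77 to 0.41. None of the 19 rose and, where 0.820% of all genes fell, 1 fell. This was Inpp5d, the inositol phosphatase SHIP1, at -0.54 (adjusted p = 0.0444, SE 0.16) per the authors' deposited table. The call was lost with all log2 fold changes centred on their median (adjusted p = 0.0613) and with z scaled (adjusted p = 0.0527), the range over all alternatives being 0.0371 to 0.0613. At an unadjusted p under 0.05, 7 of the 19 were lower, where 5.79% of all genes were, and 1 was higher. None of the 19 passed in CAU against CTX (median 0.12) or CAU against UT (median -0.08). The kinase gene Src was at 0.03 (SE 0.08) in the former and the adaptor gene Grb2 at 0.04 (SE 0.12) in the latter, per the authors' deposited table.

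Transcription factors of the myeloid lineage had negative log2 fold changes in CTX, with none past the threshold. None of 11 passed by DESeq2 adjusted p, and all 11 were negative with a median of -0.56. At an unadjusted p under 0.05, 5 of the 11 were lower, where 5.79% of all genes were. Cebpb, the most precise, was at -0.27 (adjusted p = 0.393, SE 0.12) per the authors' deposited table. Spi1, which encodes PU.1, a factor known to drive Csf1r, was at -0.82 (adjusted p = 0.159, SE 0.29), and Irf8 at -0.56 (adjusted p = 0.119, SE 0.19), per the authors' deposited table; both are named after their values were seen. In CAU against CTX the median of the 11 was 0.04, and Cebpa was at -0.48 (adjusted p = 0.0598, SE 0.13) per the authors' deposited table. In CAU against UT the median was -0.64 and none passed, with Cebpb at -0.23 (SE 0.13) per the authors' deposited table.

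Receptors of the other colony-stimulating factors included 2 genes that fell in CTX against UT, where 0.820% of all genes fell. Of 7 genes for these factors and receptors, Csf2rb, the shared beta chain of the GM-CSF, IL-3 and IL-5 receptors, was at -1.35 (adjusted p = 0.00356, SE 0.31) in CTX against UT per the authors' deposited table. Its close copy Csf2rb2 was at -1.01 (adjusted p = 0.0248, SE 0.27) per the authors' deposited table, and reads may have been split between the copies. The median of the 7 was -1.01 in CTX against UT, 0.06 in CAU against CTX and -0.70 in CAU against UT, and none passed in the latter comparisons. Il3ra was at -0.01 (SE 0.17) and -0.02 (SE 0.25) there per the authors' deposited table. At an unadjusted p under 0.05, 3 of the 7 were lower in CAU against UT, where 2.26% of all genes were, and none was higher.

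None of 10 genes for ligands and partners of the surface markers passed in any comparison, with medians of -0.19, -0.05 and -0.08. Axl, a relative of Mertk, was at -0.27 (adjusted p = 0.129, SE 0.09) in CTX against UT and at -0.26 (SE 0.15) in CAU against UT per the authors' deposited table. Itgb2, the beta chain that pairs with the product of Itgam, was at -0.59 (SE 0.34) and Cx3cl1, the ligand of CX3CR1, at -0.30 (SE 0.27) in CTX against UT per the authors' deposited table, both named after their values were seen. Sdc1, a syndecan that binds interleukin 34, was at -0.10 (SE 0.10) in CAU against CTX per the authors' deposited table.

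Other macrophage markers fell in part as well. Of 20 such markers, 18 were negative in CTX against UT, with a median of -0.61. Where 0.820% of all genes fell, 5 of the 20 did and none rose. They were Siglec1, the sialic acid receptor CD169, at -0.92 (adjusted p = 2.61e-06, SE 0.16), C1qb, a chain of complement C1q, at -0.96 (SE 0.16) and Apoe, apolipoprotein E, at -0.56 (SE 0.10) per the authors' deposited table, with C1qa and C1qc. In CAU against CTX, where 0.312% of all genes rose, 2 of the 20 rose and none fell. C1qb rose by 0.51 (adjusted p = 0.00630, SE 0.12) and C1qc by 0.43 (adjusted p = 0.0171, SE 0.11) per the authors' deposited table. The median of the 20 was 0.19. In CAU against UT none passed, and the median was -0.45, with C1qb at -0.44 (SE 0.16) per the authors' deposited table.

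**Figure D4:**
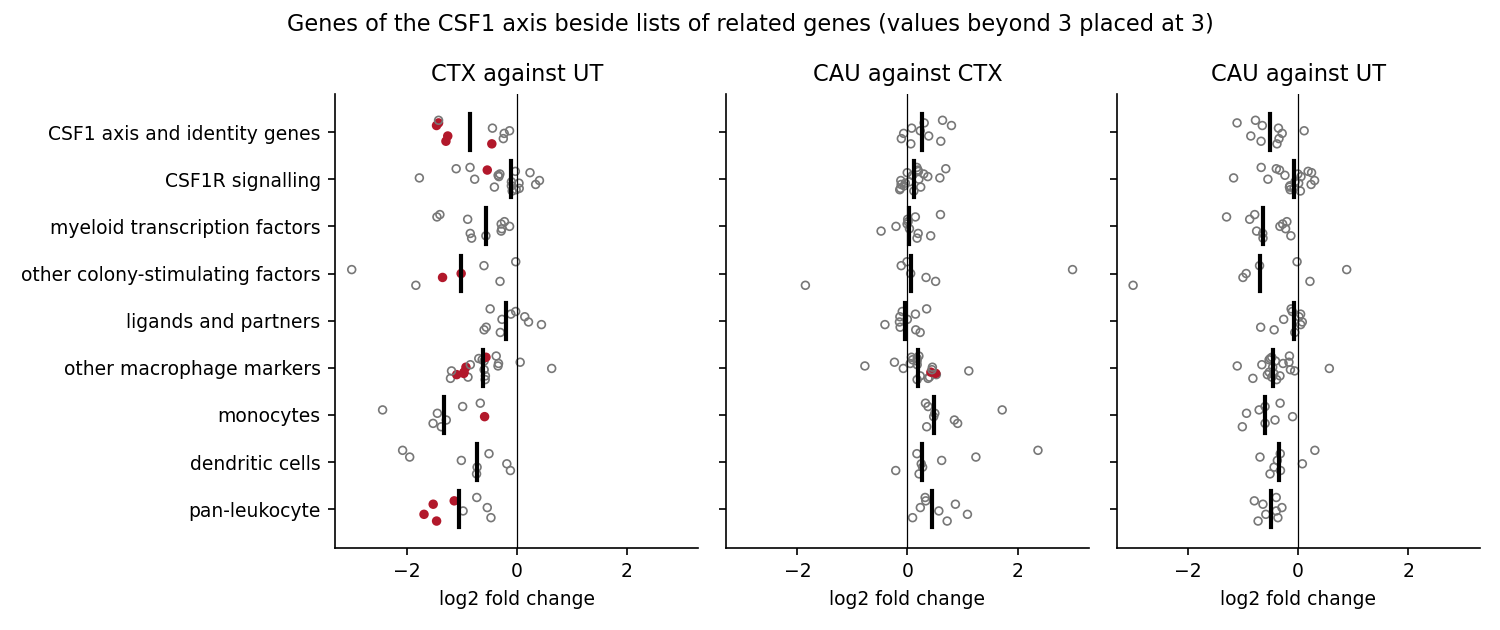
Log2 fold changes of single genes (circles, filled red where the adjusted p was under 0.05) in the CSF1 axis and identity genes and in 8 lists of related genes, with each list's median as a black bar, in the 3 comparisons. In CTX against UT the medians run from -1.33 for monocyte genes to -0.10 for CSF1R signalling genes.

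Genes shared by all white blood cells fell in part in CTX against UT, where 0.820% of all genes fell. Of 8 pan-leukocyte genes, 4 fell in CTX against UT and none rose, with a median of -1.06, among them Coro1a at -1.69 (adjusted p = 0.000175, SE 0.33), Rac2 at -1.14 (adjusted p = 0.000555, SE 0.24) and Ptprc, which encodes CD45, at -1.46 (adjusted p = 0.00308, SE 0.33) per the authors' deposited table. None of the 8 passed in CAU against CTX, where all 8 were positive (median 0.45), or in CAU against UT, where all 8 were negative (median -0.49). The actin-bundling gene Lcp1 was at 0.23 (SE 0.11) in the former and -0.30 (SE 0.22) in the latter per the authors' deposited table. Of 8 monocyte genes, all were negative in CTX against UT (median -1.33) and 1 fell, Plac8 at -0.585 (adjusted p = 0.00599, SE 0.14) per the authors' deposited table. In CAU against CTX the monocyte median was 0.49 and in CAU against UT -0.60, with none past the threshold. Ace was at 0.33 (SE 0.14) in the former and Plac8 at -0.10 (SE 0.18) in the latter per the authors' deposited table. None of 8 dendritic cell genes passed, with medians of -0.73, 0.26 and -0.35, and Zbtb46, the most precise, was at -0.12 (SE 0.13), -0.21 (SE 0.14) and -0.32 (SE 0.15) in the 3 comparisons per the authors' deposited table.

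Of 8 measured T and NK cell genes, 2 fell in CTX against UT (Ncr1 and Gzma, median of the 8 -2.25) and 3 rose in CAU against CTX (Ncr1, Gzma and Gzmb, median 1.82). Over all genes, 0.820% fell in the former and 0.312% rose in the latter. The NK cell receptor gene Ncr1 was at -3.21 (SE 0.70) and 3.12 (SE 0.70) in these comparisons per the authors' deposited table. None of 10 neutrophil genes passed, with medians of -1.28 and 2.47 in these comparisons and 0.67 in CAU against UT. Cxcr2, the most precise of them, was at -0.33 (SE 0.27), 0.23 (SE 0.26) and -0.09 (SE 0.32) per the authors' deposited table. The median SE of the 10 neutrophil genes was 1.48, 1.15 and 1.45 in the same order. Their medians are thus imprecise, and Cxcr2 need not stand for the others. No gene of the 5 B cell or 5 mast cell genes passed either, with medians of -0.86 and -1.69 in CTX against UT. Outside blood cells, the CTX against UT medians were 0.48 for 8 granulosa cell genes (Inhba rose), 0.10 for 6 oocyte genes, -0.02 for 5 endothelial and -0.02 for 5 smooth muscle genes, -1.40 for 7 surface and tract epithelium genes (Upk3b fell) and -1.55 for 6 adipocyte genes. In CAU against CTX none of these lists had a gene past the threshold, and the epithelium genes were positive in 7 of 7 (median 1.30). At an unadjusted p under 0.05, 4 of these 7 were higher, where 3.32% of all genes were. So were 4 of 8 pan-leukocyte, 4 of 8 T and NK cell and 3 of 8 monocyte genes. The counts were 3 of 10 for neutrophil genes and 5 of 20 for other macrophage markers. None of these lists had a gene lower at that p in CAU against CTX. The other medians there were -0.13 for granulosa cell, -0.09 for oocyte, -0.11 for endothelial, 0.22 for smooth muscle and -0.15 for adipocyte genes, and 0.27 for B cell and 0.24 for mast cell genes. In CAU against UT the medians were -0.07 for epithelium, -1.68 for adipocyte and 0.35 for granulosa cell genes, with none past the threshold. The part of these cells in the values of the 10 genes was not tested.

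The DNA just before the start sites is shown for 3 of the genes, because Cx3cr1 and Itgam had nearly equal log2 fold changes in CTX against UT while the interval of Cd68 included 0. The sequences are RefSeq's for GRCm38.p6, the 250 bases before a start site, 5′ to 3′ on the gene's strand, and capitals mark GAGGAA or its reverse complement, the purine-rich core that PU.1 and other ETS factors can bind. Windows were matched for 7 of the 10 genes. They lie at chr9:120068297-120068546 (minus strand) for Cx3cr1, chr7:128062390-128062639 (plus strand) for Itgam and chr11:69666171-69666420 (minus strand) for Cd68. The Aif1 window is not shown, since RefSeq's table sets it by a start site inside the gene and 31 of its bases lie in the gene's own span.
Cx3cr1: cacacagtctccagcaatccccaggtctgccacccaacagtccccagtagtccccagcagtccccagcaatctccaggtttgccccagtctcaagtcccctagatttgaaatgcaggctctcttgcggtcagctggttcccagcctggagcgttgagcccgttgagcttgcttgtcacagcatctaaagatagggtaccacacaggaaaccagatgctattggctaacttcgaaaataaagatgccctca
Itgam: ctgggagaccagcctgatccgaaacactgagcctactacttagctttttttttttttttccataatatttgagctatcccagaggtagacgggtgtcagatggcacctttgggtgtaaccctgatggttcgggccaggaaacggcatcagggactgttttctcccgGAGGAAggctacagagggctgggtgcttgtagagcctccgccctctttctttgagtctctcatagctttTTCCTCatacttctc
Cd68: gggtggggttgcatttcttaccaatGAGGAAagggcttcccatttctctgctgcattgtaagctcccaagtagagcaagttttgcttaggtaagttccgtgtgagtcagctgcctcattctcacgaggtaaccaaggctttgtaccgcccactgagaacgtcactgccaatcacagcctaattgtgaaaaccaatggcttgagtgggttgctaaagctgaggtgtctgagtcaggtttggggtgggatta

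GAGGAA, searched on both strands, was in 3 of the 7 windows, those of Aif1, Itgam and Cd68. It was in 22.6% of 15417 windows of genes in the table, with chromosome 18 left out. It began 84 and 15 bases before the start site in Itgam and 225 bases before it in Cd68. In Aif1 it began 7 bases before the start site used, within the 31 bases inside the gene, so it is no match upstream of the whole gene. It was not in the windows of Cx3cr1, Csf1, Mertk and Lyz2. The log2 fold changes of Itgam and Cd68, whose windows both hold these letters, were -1.42 and -0.23 in CTX against UT per the authors' deposited table. A relation between the letters and the log2 fold changes was not tested. TGANTCA, which AP-1 can bind, was in the Cd68 window only among the 7, at 2 places, and in 5.57% of all windows. CCAAT was in 2 of the 7 windows and 36.3% of all, and neither TATAAA (9.49% of all) nor CACGTG (7.32%) was in any of the 7. No match of one motif overlapped that of another in these windows. A match describes letters and is not a measured binding site, and a window without a match is not shown to lack a site.

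The genes lie on different chromosomes, and only Aif1 and Adgre1, at chr17:35170986-35176083 and chr17:57358581-57483529, share one. In GRCm38.p6, Csf1 lies at chr3:107741048-107760469, Il34 at chr8:110741829-110805949, Cx3cr1 at chr9:120048683-120068296, Cd68 at chr11:69664213-69666170, Itgam at chr7:128062640-128118491 and Mertk at chr2:128698915-128803162. RefSeq places long non-coding RNA genes over parts of Il34, Cx3cr1 and Csf1r and over the whole of Csf1, none of which is listed per the authors' deposited table. The sources used here give no strand setting for the counting, so reads of such transcripts may be counted with these genes.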

How the data were processed

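RNA-seq of ovarian tissue covered 9 samples, 3 each of UT, CTX and CAU, grouped by their titles. The tools in the submitters' processing notes are DESeq2 1.44.0, RSEM 1.3.1, Bowtie2 and HISAT2 and the build is GRCm38.p6, with no roles or order. The annotation, strand, filters and covariates behind the table are not stated in these sources. Per the file headers, the authors deposited, for each gene and pair of groups, a log2 fold change and a DESeq2 p-value and q-value. The q-value lay within 7.74e-05 of a Benjamini-Hochberg adjustment over all genes with a p-value. Between 215 and 272 genes were blank in a comparison. Depth per sample is unknown here, so no floor based on counts is given, and the planned fits on libraries (edgeR, leaving out replicates, the replicate block) were not possible.

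The implied SE is the log2 fold change divided by the z that its 2-sided p-value gives, as for a Wald test with no shrinkage, and 95% intervals are normal. The sign convention was checked to be shared by the 3 comparisons: in 18772 of 18773 genes the sum of the first and second equalled the third to within 0.01 of a constant. The genes and lists were chosen with earlier results of these data known. Named beside the 10 genes were, for each list and comparison, up to 3 genes past the threshold with the smallest adjusted p, or else the gene with the smallest SE, along with Lyz1 and the 5 genes nearest to Csf1r. Spi1, Irf8, Itgb2, Cx3cl1, Gas6 and Pros1 fall outside this rule and were named after their values were seen. Scripts were tested on simulated data. Python 3.11.15, numpy 2.4.6, pandas 2.3.3, scipy 1.17.1, matplotlib 3.10.9 and Biopython 1.88 were used. Alternatives were other thresholds, adjustment over precise genes, centring, scaling of z and a minimum fold.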

Additional observations from a re-analysis of the deposited data

How the results depend on the processing

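Of the 10 genes, 5 fell in CTX against UT at an adjusted p under 0.05, and 3 at a threshold of 0.01 (Csf1, Csf1r and Cx3cr1). The count stayed at 5 at a threshold of 0.10, with adjustment over genes with an SE of at most 1, with all values centred on their median and with z scaled to a spread of 1, and was 4 with a minimum change of 2-fold, which left out Csf1. In CAU against CTX the count of 0 became 1, Csf1r, both at a threshold of 0.10 and with z scaled. In CAU against UT the count of 0 became 3 with z scaled (Csf1, Csf1r and Cx3cr1). The robust spread of z over all genes was 1.01, 0.841 and 0.711 in CTX against UT, CAU against CTX and CAU against UT, and scaling moved the calls over all genes from 85 to 237 in CAU against CTX and from 10 to 255 in CAU against UT. The cause of that narrow spread was not tested. At a threshold of 0.01 the calls over all genes in CTX against UT went from 249 to 117 and at 0.10 to 415. For the medians of the 10 genes, an SE limit of 0.5 left out none of them and centring shifts all genes alike, so neither alternative tests them. With independent errors of the genes of a pair, the pairs with an interval excluding 0 rose from 12 to 23, from 0 to 7 and from 2 to 6. No paired analysis was possible because the deposited table holds group comparisons and no values per sample, and for the same reason no replicate was left out and edgeR was not run.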

Other observations

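The ligands of MERTK were among the partner genes and did not pass. Gas6 was at 0.45 (adjusted p = 0.533, SE 0.24) and Pros1 at 0.21 (adjusted p = 0.679, SE 0.14) in CTX against UT per the authors' deposited table. In CAU against CTX, Gas6 was at -0.41 (adjusted p = 0.347, SE 0.14) and Pros1 at -0.15 (SE 0.17) per the authors' deposited table. In CAU against UT they were at 0.05 (SE 0.26) and 0.08 (SE 0.21) per the authors' deposited table. Mertk itself was at -0.13, 0.23 and 0.11 in the 3 comparisons per the authors' deposited table. Gas6 and Pros1 were named after their values were seen.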
